A study of Mus musculus with 12 samples.

Results

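The collagen genes were described in mouse sarcomas that had been left untreated or treated with an arginine-depleting enzyme, a lysosomal drug, or both. They were taken by a rule on names: protein-coding genes of the deposited expression table whose symbol is Col, a number, the letter a and a number. The rule found 40 genes of the 16335 distinct genes in the table, with no use of their measured values. Of the 11 fibrillar genes listed 10 were in the table (Col2a1 was not), and all 6 collagen IV and all 6 collagen VI genes were. Of 9 FACIT genes (fibril-associated collagens with interrupted triple helices) 6 were in the table, without Col9a1, Col9a2 and Col19a1. The remaining 12 were 3 genes of the hexagonal network collagens, 2 multiplexins, 4 transmembrane collagens, and Col7a1, Col26a1 and Col28a1.

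All 12 libraries came from tumors of 1 line, BVMA01R, a murine sarcoma line of genotype Myf5-Cre;p53-/-;Ass1-/-, in female C57BL/6J mice. Myf5 is a gene of muscle progenitors, so that the Cre driver acts in that lineage, and every group, the untreated one included, carried the same deletions of p53 and Ass1. The 4 groups of 3 libraries were NT (no treatment), CQ (chloroquine, which blocks lysosomal acidification), ADI-PEG20 (a pegylated arginine deiminase, which breaks down arginine) and ADI-PEG20+CQ (both). RNA was total RNA of frozen tumors after removal of ribosomal RNA, so each value sums tumor cells and host stroma. The labels used here give no dose, no time of treatment and no age, and leave it unstated whether every library had its own mouse. P-values therefore measure the spread between these samples, which may be technical.

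Collagens are triple helices of 3 chains with glycine at regular steps along each chain. Collagens I, III, V and XI form the fibrils that give tissue its tensile strength, collagen IV forms the sheet of basement membranes, and collagen VI forms beaded filaments around cells. In tumors, fibrillar collagen is made mostly by fibroblasts and by mesenchymal tumor cells, whereas the collagen IV of vessels comes largely from endothelial cells and pericytes. Chains are hydroxylated in the endoplasmic reticulum, secreted as procollagens, trimmed by proteases outside the cell and cross-linked by lysyl oxidases.

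Promoter windows of 6 collagen genes are shown because the data below turn on them. Col4a1 and Col4a2 start beside each other on opposite strands and had almost parallel levels. Col1a2 and Col3a1 are abundant fibrillar chains, Col10a1 had the smallest p over the 4 groups, and Col7a1 the next. Each window runs from 250 bases before to 50 bases after the start in RefSeq (GRCm38.p6), 5′ to 3′ on the strand of the gene. Capitals mark matches on either strand to 4 motifs. These are the TATA box with the letters TATAAA, the CCAAT box with the letters of its name, the GC box with the letters GGGCGG, and the AP-1 site with the letters TGANTCA.
Col4a1, chr8:11312777-11313076, minus strand: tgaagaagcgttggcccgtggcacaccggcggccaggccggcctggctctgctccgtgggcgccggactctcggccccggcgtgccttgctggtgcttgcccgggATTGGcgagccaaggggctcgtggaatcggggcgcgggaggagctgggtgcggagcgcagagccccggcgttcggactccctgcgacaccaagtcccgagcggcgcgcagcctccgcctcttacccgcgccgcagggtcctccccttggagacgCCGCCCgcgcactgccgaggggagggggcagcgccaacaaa
Col4a2, chr8:11312555-11312854, plus strand: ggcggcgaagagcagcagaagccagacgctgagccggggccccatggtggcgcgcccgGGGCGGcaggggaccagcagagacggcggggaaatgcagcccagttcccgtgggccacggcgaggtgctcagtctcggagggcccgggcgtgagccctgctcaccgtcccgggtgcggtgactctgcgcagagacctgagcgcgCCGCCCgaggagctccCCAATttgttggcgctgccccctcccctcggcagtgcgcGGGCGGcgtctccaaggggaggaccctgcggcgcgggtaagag
Col1a2, chr6:4505368-4505667, plus strand: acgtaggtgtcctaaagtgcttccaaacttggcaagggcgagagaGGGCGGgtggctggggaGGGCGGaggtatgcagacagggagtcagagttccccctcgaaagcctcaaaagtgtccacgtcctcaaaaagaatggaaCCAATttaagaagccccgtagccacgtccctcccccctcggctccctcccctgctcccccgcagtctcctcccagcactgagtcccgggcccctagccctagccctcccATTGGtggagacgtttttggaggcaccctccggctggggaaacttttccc
Col3a1, chr1:45311288-45311587, plus strand: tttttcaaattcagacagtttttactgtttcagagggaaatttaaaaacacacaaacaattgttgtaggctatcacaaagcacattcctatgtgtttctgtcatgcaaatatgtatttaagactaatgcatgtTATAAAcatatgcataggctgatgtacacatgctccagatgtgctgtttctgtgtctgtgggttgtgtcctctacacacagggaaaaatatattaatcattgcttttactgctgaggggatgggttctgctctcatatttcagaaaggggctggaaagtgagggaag
Col10a1, chr10:34389731-34390030, plus strand: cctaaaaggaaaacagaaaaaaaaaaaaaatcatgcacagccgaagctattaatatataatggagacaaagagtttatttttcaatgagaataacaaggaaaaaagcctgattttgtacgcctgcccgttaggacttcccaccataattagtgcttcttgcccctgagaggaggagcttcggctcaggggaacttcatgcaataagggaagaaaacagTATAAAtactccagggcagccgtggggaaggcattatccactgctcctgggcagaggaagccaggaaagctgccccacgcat
Col7a1, chr9:108953336-108953635, plus strand: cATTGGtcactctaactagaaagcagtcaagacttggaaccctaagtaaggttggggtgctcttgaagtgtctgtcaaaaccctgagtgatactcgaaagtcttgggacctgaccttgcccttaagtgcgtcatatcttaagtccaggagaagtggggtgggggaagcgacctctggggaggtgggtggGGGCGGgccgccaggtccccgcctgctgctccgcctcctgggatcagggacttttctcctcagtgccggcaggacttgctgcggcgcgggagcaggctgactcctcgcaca

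The windows of Col4a1 and Col4a2 overlap, since their gene starts in GENCODE M21 lie 21 bp apart, and their GC content was 74.0% and 73.7%. The windows of Col3a1 (37.7% GC) and Col10a1 (44.3% GC) each held 1 match to TATAAA and none to GGGCGG, and that of Col1a2 (61.0% GC) held 2 matches to CCAAT and 2 to GGGCGG. Entries existed for 32 of the 40 collagen genes, 34 windows in all. GGGCGG was found in 22 of these 34 windows (64.7%), beside 35.7% of all 32851 windows in the table. TATAAA was in 5 (14.7%, beside 13.6% of all), CCAAT in 12 (35.3%, beside 37.4%) and TGANTCA in 1 (2.94%, beside 7.81%). No motif searched contains another, and a match is a description of letters, not of a bound factor.

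Library totals ran from 15501998 to 28410940 reads, recovered as whole reads from the deposited values, and collagen genes took 3.66% (ADI-PEG20 library 2) to 8.79% (CQ library 1) of them. ADI-PEG20 library 1 stood apart from the rest: the noncoding transcript Gm26917 took 22.8% of its reads (5.09% to 16.4% in the others), 120 genes were at 0 reads (7 to 43 in the others) and its median correlation with the other libraries was 0.920. Fibroblast markers, 8 of 8 in the table with none at 0, summed to 551 to 900 CPM over all libraries, with overlapping ranges in the 4 groups. Macrophage markers (7 of 7, none at 0) summed to 760 to 964 CPM untreated, 828 to 1132 with chloroquine, 1088 to 1556 with ADI-PEG20 and 1248 to 1647 with both. Markers of the myogenic line (Myf5, Myod1, Des and Myog, 4 of 5, without Pax7) summed to 254 to 471 CPM untreated, 274 to 439 with chloroquine, 86.8 to 442 with ADI-PEG20 and 120 to 154 with both. Myf5, the driver gene of the line, gave reads in every library. In bulk tumors fewer cells of a type and less RNA per cell cannot be told apart, here and in all values below.

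The collagen genes spanned a wide range of expression. Per kb of exon (log2 CPM per kb, mean of 12 libraries), the highest were Col1a1 at 11.65, Col1a2 at 9.91, Col3a1 at 9.31, Col5a1 at 8.07, Col6a1 at 8.01 and Col4a1 at 7.66. The lowest was Col22a1 at -4.12. Col1a1, Col1a2 and Col3a1 alone made up 65.0% to 79.2% of collagen reads. Fibrillar genes together held 73.9% (ADI-PEG20+CQ library 2) to 86.8% (CQ library 1) of the collagen CPM, and collagen IV held 2.27% to 8.93% in the same 2 libraries in reverse order. Collagen levels also varied more between libraries of a group than other genes did: the median within-group SD was 0.47 log2 units for the 22 collagen genes at 5 log2 CPM or more, and 0.22 for all 5567 genes at that level.

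**Figure D1:**
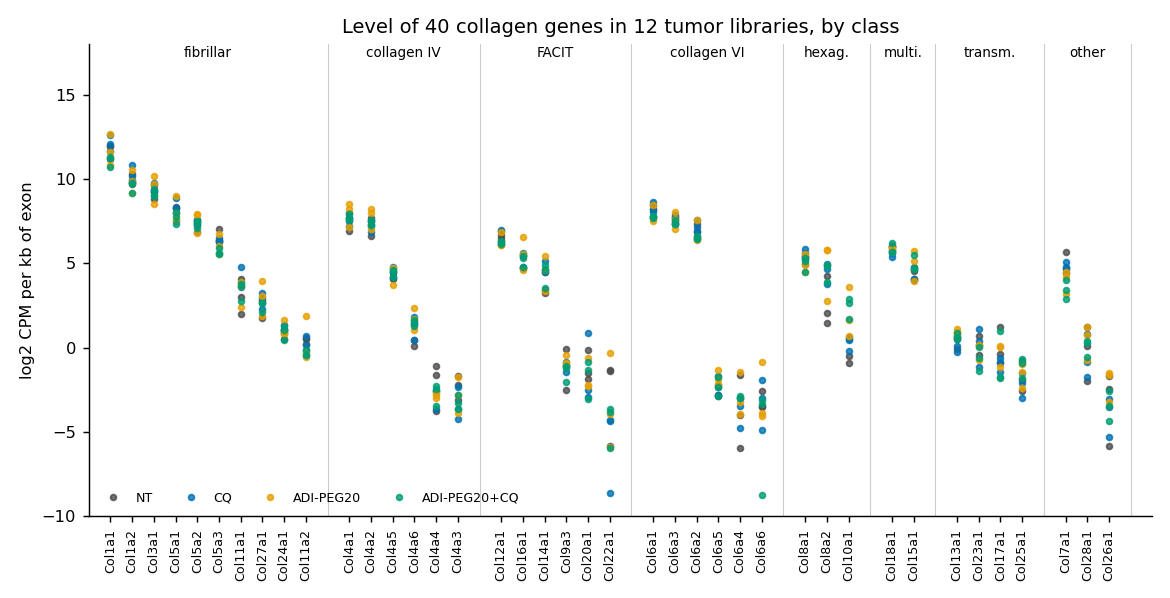
Log2 CPM per kb of exon (vertical axis) for the 40 collagen genes, grouped by class and ordered by mean within a class; each point is 1 of 12 libraries, coloured by treatment. The fibrillar chains Col1a1, Col1a2 and Col3a1 lead with means of 11.65, 9.91 and 9.31, and Col22a1, the lowest at -4.12, has the widest scatter, a range of 8.28 log2 units.

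Collagen I is the heterotrimer of Col1a1 and Col1a2 and the main protein of fibrils. Col1a1 (chromosome 11, 94936224 to 94953042, GRCm38) was at 13.91, 14.69 and 14.69 log2 CPM untreated, 15.32, 14.34 and 14.77 with chloroquine, 15.36, 13.54 and 14.30 with ADI-PEG20, and 13.96, 13.44 and 14.03 with both. Its mean was 14.81 (SD 0.49, n = 3) with chloroquine and 13.81 (SD 0.32, n = 3) with both, and no library of the combination reached the lowest chloroquine library. Col1a2, its partner chain (chromosome 6, 4504814 to 4541544), was at 13.43, 13.34 and 13.93 log2 CPM untreated, 14.44, 13.56 and 13.79 with chloroquine, 14.17, 12.82 and 13.50 with ADI-PEG20, and 13.41, 12.79 and 13.41 with both. Its chloroquine and combination libraries did not overlap either, whereas untreated and ADI-PEG20 libraries overlapped every other group. ADI-PEG20 held both the highest Col1a1 library of the series and the second lowest, which gave that group an SD of 0.91.

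Col3a1, which forms the thin fibrils of distensible tissue as a homotrimer (chromosome 1, 45311538 to 45349706), was at 12.11, 12.51 and 12.92 log2 CPM untreated, 13.05, 12.58 and 12.61 with chloroquine, 13.47, 11.78 and 12.97 with ADI-PEG20, and 12.70, 12.26 and 12.36 with both. Its groups overlapped throughout. The collagen V chains regulate the diameter of collagen I fibrils. Col5a1 (chromosome 2, 27886425 to 28039514) was at 10.60, 11.45 and 11.35 log2 CPM untreated, 11.95, 11.08 and 11.35 with chloroquine, 12.08, 10.63 and 11.01 with ADI-PEG20, and 11.13, 10.43 and 10.85 with both. Col5a2 (chromosome 1, 45374321 to 45503282), the neighbour of Col3a1, was at 10.10, 10.52 and 10.85 log2 CPM untreated, 10.81, 10.57 and 10.69 with chloroquine, 11.09, 10.06 and 11.15 with ADI-PEG20, and 10.76, 10.35 and 10.62 with both. Neither separated any group from another. Col5a3, the third chain of the type (chromosome 9, 20770050 to 20815067), was at 9.08, 9.80 and 9.15 log2 CPM untreated, 9.27, 9.10 and 9.04 with chloroquine, 9.50, 8.79 and 8.31 with ADI-PEG20, and 8.65, 8.31 and 8.35 with both: its 3 combination libraries lay below all untreated and all chloroquine libraries. Col11a1, Col11a2, Col24a1 and Col27a1 had means over the 12 libraries of 0.17 to 3.45 log2 CPM per kb.

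Collagen IV is the network of basement membranes. Col4a1 (chromosome 8, 11198423 to 11312826) was at 9.84, 10.85 and 10.56 log2 CPM untreated, 10.09, 10.39 and 10.61 with chloroquine, 11.42, 10.04 and 11.14 with ADI-PEG20, and 10.56, 10.79 and 10.48 with both. Col4a2, with which it forms the common trimer (chromosome 8, 11312805 to 11449287), was at 9.33, 10.43 and 10.22 log2 CPM untreated, 9.55, 9.94 and 10.21 with chloroquine, 10.92, 9.73 and 10.70 with ADI-PEG20, and 10.07, 10.29 and 9.9983 with both. The highest library for both was ADI-PEG20 1 and the lowest was NT 1, and no group separated from another. Col4a3, a chain of the kidney type of basement membrane (chromosome 1, 82586921 to 82722059), was scarce, with 11 to 68 reads a library: 0.19, 1.63 and 1.09 log2 CPM untreated, 1.0014, -0.90 and -0.31 with chloroquine, 0.48, -0.54 and 1.58 with ADI-PEG20, and 0.01, 0.48 and -0.33 with both. Col4a4, its partner, had 16 to 81 reads. Col4a5 had 1819 to 3892 reads and Col4a6 175 to 591.

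Collagen VI has 3 main chains, encoded by Col6a1, Col6a2 and Col6a3. Col6a1 (chromosome 10, 76708792 to 76726168) was at 10.35, 9.86 and 10.55 log2 CPM untreated, 10.77, 10.15 and 10.31 with chloroquine, 10.59, 9.66 and 9.85 with ADI-PEG20, and 9.92, 9.81 and 9.85 with both. Col6a2 (chromosome 10, 76595762 to 76623630) was at 9.97, 9.50 and 10.37 log2 CPM untreated, 10.65, 9.90 and 10.18 with chloroquine, 10.63, 9.41 and 9.62 with ADI-PEG20, and 9.67, 9.51 and 9.63 with both. In both genes the combination libraries lay below all chloroquine libraries. Col6a3, the longest of the 3 chains (chromosome 1, 90765923 to 90843971), was at 10.94, 11.08 and 11.34 log2 CPM untreated, 11.45, 10.90 and 11.29 with chloroquine, 11.59, 10.64 and 11.20 with ADI-PEG20, and 11.15, 10.89 and 10.91 with both, with overlap between all groups. Col6a4, Col6a5 and Col6a6 were scarce, from 0 reads (Col6a6 in ADI-PEG20+CQ library 2) to 116 reads.

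The FACIT collagens sit on the surface of fibrils. Col12a1, the most abundant of them (chromosome 9, 79598991 to 79718831), was at 10.45, 10.22 and 10.60 log2 CPM untreated, 10.88, 10.83 and 10.04 with chloroquine, 9.9952, 10.01 and 10.78 with ADI-PEG20, and 10.26, 10.21 and 10.07 with both. Col14a1, which binds collagen I fibrils (chromosome 15, 55307750 to 55520803), was at 6.24, 6.03 and 7.30 log2 CPM untreated, 7.95, 7.49 and 7.31 with chloroquine, 8.23, 6.16 and 7.42 with ADI-PEG20, and 7.73, 6.31 and 7.38 with both: all 3 chloroquine libraries lay above the untreated ones. Col22a1, a collagen of muscle and tendon junctions (chromosome 15, 71795795 to 72034227), had 0 to 92 reads and was at 1.89, 1.79 and -2.65 log2 CPM untreated, -1.14, -5.42 and -1.10 with chloroquine, 2.86, -0.76 and -2.71 with ADI-PEG20, and -0.42, -2.74 and -0.60 with both. The value of -5.42 stands for 0 reads. Its 3 highest libraries were ADI-PEG20 1, NT 1 and NT 2, and skeletal muscle markers (8 of 8, none at 0) summed to 2434, 1751 and 59.1 CPM in these, against 63.0 to 746 CPM in the other 9. The part of muscle tissue in this result was not tested.

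Among the network-forming and other collagens, Col8a1 (chromosome 16, 57624258 to 57754737) was at 8.41, 7.92 and 8.33 log2 CPM untreated, 8.84, 8.59 and 8.23 with chloroquine, 8.52, 7.44 and 7.85 with ADI-PEG20, and 8.11, 7.44 and 8.26 with both. Col8a2, the second chain of collagen VIII, a component of subendothelial and corneal matrix (chromosome 4, 126286793 to 126314330), was at 4.23, 3.61 and 6.38 log2 CPM untreated, 6.82, 5.90 and 7.10 with chloroquine, 7.96, 4.94 and 7.97 with ADI-PEG20, and 7.01, 6.03 and 7.05 with both. The 3 lowest Col8a2 libraries were NT 2, NT 1 and ADI-PEG20 2, while NT 3 lay within the range of the treated groups. Col10a1, known as the collagen of hypertrophic cartilage (chromosome 10, 34389981 to 34397085), was at 1.12, 0.76 and 2.25 log2 CPM untreated, 1.46, 2.17 and 2.10 with chloroquine, 3.26, 2.33 and 5.26 with ADI-PEG20, and 3.31, 4.52 and 4.28 with both. All ADI-PEG20 libraries, with or without chloroquine, lay above all libraries without it. Cartilage markers (4 of 7 in the table, without Matn1, Hapln1 and Cnmd) summed to 175 to 241 CPM untreated and 99.4 to 226 CPM with both, and of the bone markers only Alpl and Spp1 of 6 were in the table. Spp1 alone made nearly the whole bone sum, 258 to 506 CPM untreated and 476 to 1094 CPM with both, and its relation to Col10a1 was not tested.

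Col18a1, a basement membrane collagen whose end is endostatin (chromosome 10, 77052178 to 77166548), was at 8.86, 8.62 and 8.76 log2 CPM untreated, 8.15, 8.83 and 8.44 with chloroquine, 8.71, 8.51 and 8.68 with ADI-PEG20, and 8.49, 8.99 and 8.45 with both, a narrow range in which all groups overlapped. Col13a1, a membrane-spanning collagen of cell contacts (chromosome 10, 61838236 to 61979108), was at 2.09, 2.86 and 2.71 log2 CPM untreated, 2.30, 1.96 and 2.84 with chloroquine, 3.29, 3.02 and 3.13 with ADI-PEG20, and 2.79, 2.73 and 3.09 with both: the ADI-PEG20 libraries lay above all untreated and all chloroquine ones. Col7a1, which forms the anchoring fibrils of epithelial basement membranes (chromosome 9, 108953586 to 108984875), was at 7.76, 9.04 and 8.05 log2 CPM untreated, 8.41, 8.12 and 8.09 with chloroquine, 7.55, 7.86 and 6.53 with ADI-PEG20, and 6.77, 7.38 and 6.23 with both. Its combination libraries all lay below the untreated and the chloroquine libraries. Keratinocyte markers (5 of 6, without Krt1) summed to 5.69 to 44.5 CPM untreated and 6.83 to 24.5 CPM with chloroquine. With ADI-PEG20 they summed to 33.2 to 41.6 CPM, and with both to 43.5 to 74.8 CPM. Of these Krt14 gave 3.30 to 14.8, 3.80 to 18.6, 22.0 to 32.5 and 38.5 to 52.4 CPM in this order. Krt5, Krt10, Dsp and Trp63 each overlapped between the combination and the untreated and chloroquine groups. The part of keratinocytes in the Col7a1 values was not tested.

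**Figure D2:**
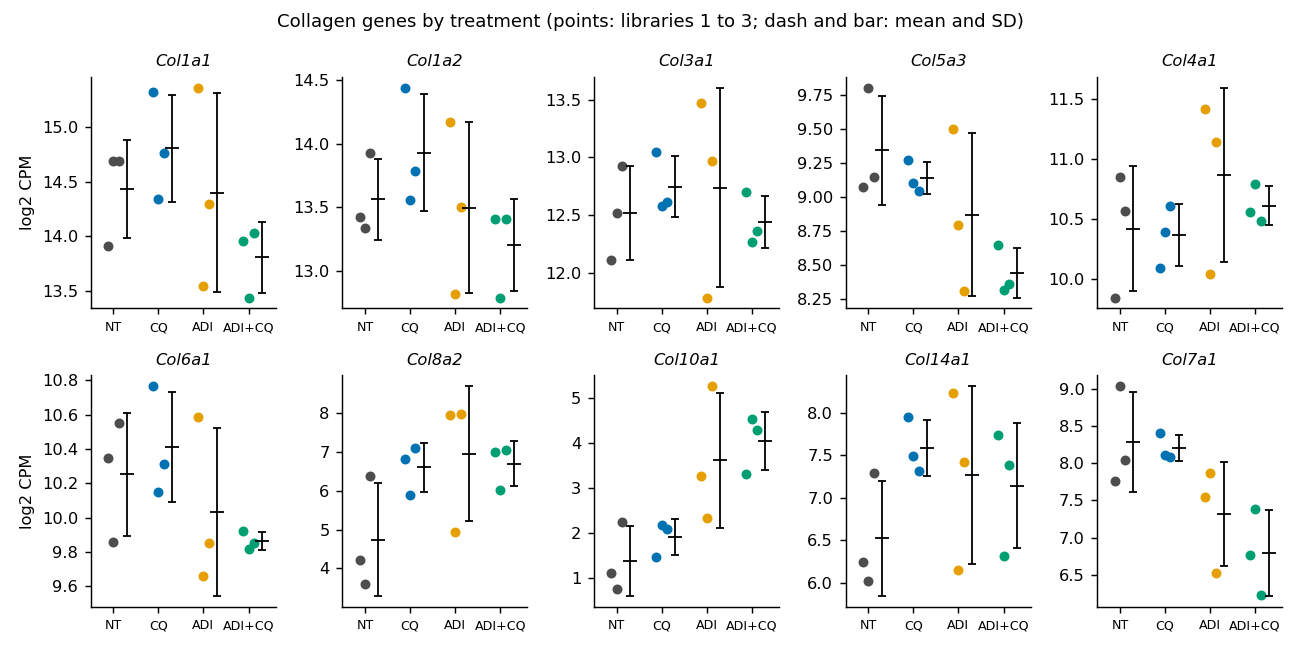
Log2 CPM (vertical axes, each on its own scale) of 10 collagen genes in the 4 treatment groups; points are libraries 1 to 3 and the black dash and bar are the mean and SD (n = 3). Col10a1 is higher in every library that had ADI-PEG20, while Col5a3 and Col7a1 are lower in all combination libraries than in untreated and chloroquine ones.

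In every comparison the 40 collagen genes were read from 1 limma fit over all genes, with p-values adjusted by Benjamini-Hochberg over 16335 genes. None of the 40, and 0% of all genes, had an adjusted p under 0.05 in any comparison. Counts at an unadjusted p under 0.05 are given with the share of all genes at that threshold in the same direction.

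With ADI-PEG20 alone, the collagens with the smallest p against untreated tumors were Col10a1, Col8a2 and Col4a6, all higher, and Col7a1, lower. Col10a1 differed by 2.24 on the log2 scale (SE 0.62, adjusted p = 0.48), Col8a2 by 2.22 (SE 0.78, adjusted p = 0.52), Col4a6 by 1.05 (SE 0.40, adjusted p = 0.54) and Col7a1 by -0.97 (SE 0.38, adjusted p = 0.55). By p, Col5a3 was next among the lower genes at -0.47 (SE 0.26). In all 3 collagen genes were higher at an unadjusted p under 0.05, where 5.17% of all genes were, and 1 was lower, where 3.13% were. Col10a1, Col13a1 and Col6a5 were above the untreated libraries without overlap and none was below, beside 5.57% and 4.54% of all genes. The median difference was 0.20 over the 40 genes and -0.01 over all genes, with fibrillar genes at 0.16 (6 of 10 higher) and collagen IV at 0.31 (4 of 6 higher). The sign of the medians over the 40 and over the fibrillar genes rested on single libraries. That of the 40 was -0.05 without NT 1, -0.01 without ADI-PEG20 1 and 0.45 without ADI-PEG20 2. That of the fibrillar genes was -0.01 without NT 1 (5 of 10 lower), -0.23 without ADI-PEG20 1 (7 of 10 lower), 0.25 without NT 3 and 0.40 without ADI-PEG20 2. The 3 higher and 1 lower genes at an unadjusted p under 0.05 became 1 higher and 5 lower without ADI-PEG20 1 (3.83% and 3.29% of all genes), 12 higher and 1 lower without ADI-PEG20 2 (7.33% and 6.1%), and 2 higher and 0 lower without ADI-PEG20 3 (3.97% and 3.52%).

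With chloroquine alone, 8 of 10 fibrillar genes were higher than in untreated tumors, with a median of 0.28 beside -0.0044 over all genes. Col1a1 differed by 0.37 (SE 0.45) and Col3a1 by 0.23 (SE 0.37). The smallest p among higher genes belonged to Col8a2, at 1.87 (SE 0.78, adjusted p = 1), and Col14a1, at 1.06 (SE 0.48, adjusted p = 1). Among lower genes they belonged to Col22a1, at -2.90 (SE 1.61), and Col4a3, at -1.04 (SE 0.65), both scarce. Col8a2 and Col14a1 were the 2 collagen genes higher at an unadjusted p under 0.05 (2.06% of all genes), and 0 were lower (1.33% of all genes). Col14a1 alone lay without overlap, above, beside 3.69% of all genes above and 3.72% below. The fibrillar median was 0.05 without NT 1 (3 of 10 lower), 0.09 without CQ 1 and 0.44 without NT 3. The median over the 40 was 0.11, and ran from -0.09 without NT 1 to 0.27 without CQ 2. The 2 higher genes became 0 higher and 2 lower without NT 1 (1.38% and 1.6% of all genes) and 0 in either direction without NT 2 (1.63% and 0.863%) or CQ 3 (1.16% and 1.71%). Without CQ 1 they became 0 higher and 1 lower (1.65% and 0.857%). They became 4 higher and 1 lower without NT 3 (5.1% and 3.2%) and 3 higher and 1 lower without CQ 2 (2.41% and 1.81%).

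With both drugs, Col10a1 was again the collagen furthest above untreated tumors, and Col7a1 and Col5a3 had the smallest p among those below. Col10a1 differed by 2.67 (SE 0.62, adjusted p = 0.31), Col8a2 by 1.96 (SE 0.78, adjusted p = 0.53), Col7a1 by -1.49 (SE 0.38, adjusted p = 0.34) and Col5a3 by -0.90 (SE 0.26, adjusted p = 0.4). These were the 2 higher and 2 lower genes at an unadjusted p under 0.05, where 4.7% and 3.95% of all genes stood. Col10a1 and Col15a1 lay above the untreated libraries without overlap (7.46% of all genes), and Col11a2, Col5a3 and Col7a1 below (7.92%). Fibrillar genes had a median of -0.20 (6 of 10 lower) and collagen IV of 0.16 (4 of 6 higher). Without NT 1 only Col4a5 and Col4a6 of collagen IV had a higher mean with both drugs. The fibrillar median was -0.03 without NT 3 and -0.07 without ADI-PEG20+CQ 2 (5 of 10 lower in each), and -0.36 without NT 1 and -0.33 without ADI-PEG20+CQ 1 (9 of 10 lower in each). The median over the 40 was -0.11, and ran from -0.25 without NT 1 to 0.04 without NT 3. These comparisons share the 3 untreated libraries, so their values are not independent of each other.

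**Figure D3:**
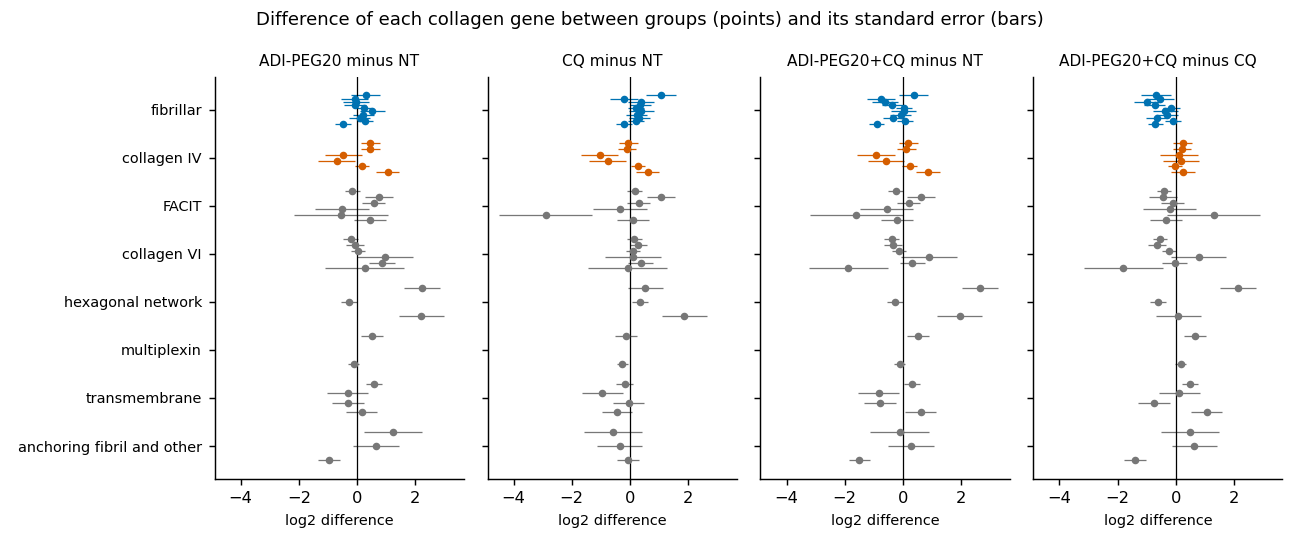
Log2 difference (horizontal axis) and its standard error (bar) of each collagen gene in 4 comparisons, 1 panel each, with genes grouped by class from top to bottom and fibrillar genes in blue, collagen IV in orange. In the panel for both drugs against chloroquine all 10 fibrillar genes lie left of 0 (median -0.60) and 5 of 6 collagen IV genes lie right of it (median 0.20). Without CQ 2 only Col4a1 and Col4a2 of collagen IV had a higher mean with both drugs.

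Adding ADI-PEG20 to chloroquine gave lower values of the fibrillar collagens and slightly higher values of most collagen IV genes, a contrast between classes that was not tested. All 10 fibrillar genes were lower with both drugs than with chloroquine, with a median of -0.60, a range of -0.9996 (Col1a1) to -0.11 (Col5a2), and a median over all genes of 0.01. Of the 6 collagen IV genes 5 were higher, with a median of 0.20 and a range of -0.03 to 0.25. This rested on 1 library: without CQ 2 only Col4a1 and Col4a2 had a higher mean with both drugs. Col4a3 and Col4a4 were also scarce. Of the 6 collagen VI genes 5 were lower, with a median of -0.39. Between the same groups, 5 of the 11 marker lists did not overlap: skeletal muscle markers summed to 534 to 746 CPM with chloroquine and 63.0 to 112 with both, those of the myogenic line to 274 to 439 and 120 to 154, and those of macrophages to 828 to 1132 and 1248 to 1647. Of the macrophage markers Csf1r, Mrc1 and C1qc did not overlap, whereas Adgre1, Cd68, C1qa and C1qb did. The bone markers summed to 119 to 460 and 476 to 1094 CPM, nearly all of it Spp1. Alpl, the other bone gene in the table, went the other way, at 1.05 to 1.88 CPM with chloroquine and 0.24 to 0.96 with both. Keratinocyte markers summed to 6.83 to 24.5 and 43.5 to 74.8 CPM. Of these Krt14 alone did not overlap (3.80 to 18.6 and 38.5 to 52.4 CPM), whereas Krt5, Krt10, Dsp and Trp63 overlapped. Fibroblast markers overlapped, at 617 to 763 and 655 to 796 CPM. The part of these cells in the collagen differences was not tested. The genes at an unadjusted p under 0.05 were Col10a1 (2.13, SE 0.62, adjusted p = 0.53), higher, and Col1a1 (-0.9996, SE 0.45, adjusted p = 0.72), Col5a3 (-0.70, SE 0.26), Col6a1 (-0.55, SE 0.25), Col7a1 (-1.41, SE 0.38, adjusted p = 0.52) and Col8a1 (-0.62, SE 0.28), lower. Of all genes 3.11% were higher and 3.67% lower at that threshold. Col1a2, at -0.73 (SE 0.37), and Col4a1, at 0.25 (SE 0.33), did not pass it.

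Of the 40, 7 lay below the chloroquine libraries without overlap, namely Col11a2, Col1a1, Col1a2, Col5a3, Col6a1, Col6a2 and Col7a1, where 9.57% of all genes did, and Col10a1 and Col6a4 lay above (8.78%). The replicate number was also set as a block, with an effect for each number shared by all 4 groups and not only by those compared here. In this fit 10 collagen genes rather than 6 were at an unadjusted p under 0.05, 2 higher and 8 lower (3.62% and 4.26% of all genes in that fit), and none passed after adjustment (Col10a1 adjusted p = 0.28). In a fit of these 6 libraries alone, Col10a1 passed (adjusted p = 0.036), the sole collagen to do so in any fit run. The fit of 6 libraries also put more of all genes at an unadjusted p under 0.05, 5.99% higher and 6.62% lower. Beside these stood 11 collagen genes, 3 higher and 8 lower. The 10 of 10 fibrillar genes became 8 of 10 without ADI-PEG20+CQ 2, and the fibrillar median was -0.33 without CQ 1 and -0.43 without ADI-PEG20+CQ 2. The count of 6 was 2 without CQ 1 (3.72% of all genes in either direction) or ADI-PEG20+CQ 2 (4.44%) and 3 without ADI-PEG20+CQ 3 (5.26%). In the authors' deposited table Col7a1 had the smallest adjusted p of any collagen in any comparison, 0.094, with a log2 fold change of -1.52 in this same comparison.

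Adding chloroquine to ADI-PEG20 gave 33 of 40 collagen genes lower, with a median of -0.28 (0.01 over all genes) and 9 of 10 fibrillar genes lower. No collagen gene stood at an unadjusted p under 0.05 in either direction, beside 1.41% of all genes higher and 2.01% lower. Col9a3 alone lay without overlap, below, where 4.47% of all genes did, and none lay above, where 4.7% did. The pattern rested on 1 library: without ADI-PEG20 1 the median was 0.04, and the fibrillar median went from -0.36 to 0.02 (5 of 10 lower). Without ADI-PEG20 2 the fibrillar median was -0.69, and without ADI-PEG20+CQ 2 it was -0.23. The count at an unadjusted p under 0.05 was 7 without ADI-PEG20 2 (9.21% of all genes in either direction), 4 without ADI-PEG20 3 (8.33%) and 1 without ADI-PEG20+CQ 2 (2.5%).

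The interaction asks whether the effect of ADI-PEG20 differed with and without chloroquine. It was negative for 32 of 40 collagen genes and for all 10 fibrillar genes, with medians of -0.36 and -0.59 beside 0.00 for all genes, so that the ADI-PEG20 difference was more negative in the presence of chloroquine. Yet 0 collagen genes stood at an unadjusted p under 0.05, beside 1.9% of all genes higher and 2.36% lower, and the largest fibrillar value, for Col11a1, was -0.99 (SE 0.72). For Col1a1 it was -0.97 (SE 0.63). Without ADI-PEG20 1 the medians were -0.13 and -0.27 and 8 of 10 fibrillar genes were negative, and without ADI-PEG20 2 they were -0.59 and -1.0022. Without NT 1 the median of the 40 was -0.18, and without CQ 1 the fibrillar median was -0.39. The count at an unadjusted p under 0.05 was 7 without ADI-PEG20 2 (8.56% of all genes), 4 without NT 3 (7.72%), and 1 without NT 1 (2.89%) or CQ 2 (5.36%).

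Over all 4 groups at once, 4 of 40 collagen genes had an unadjusted p under 0.05 in the moderated F test of limma, beside 5.72% of all genes: Col10a1 (adjusted p = 0.61), Col7a1 (adjusted p = 0.75), Col5a3 and Col8a2 (adjusted p = 0.86 for each). The count was 7 without ADI-PEG20 1 (7.38% of all genes), 11 without ADI-PEG20 2 (8.35%) and 2 without ADI-PEG20+CQ 3 (4%).

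Several chains that assemble together or sit side by side in the genome had near-parallel levels over the 12 libraries. Of 18 pairs listed 15 were measured, and permutation p-values (100000 resamples, two-sided) were adjusted over the 15. Col4a1 and Col4a2, whose gene bodies overlap by 22 bp head to head in GENCODE M21, had a Pearson r of 0.988 and a Spearman rho of 0.986 (permutation p = 1e-05 for each, the smallest the resamples can give, adjusted p = 7.5e-05). The log2 ratio of Col4a1 to Col4a2 stayed between 0.31 and 0.54 in all 12 libraries, while Col4a1 itself ranged over 1.58. Col6a1 and Col6a2, 85161 bp apart on chromosome 10, had an r of 0.978 and a rho of 0.951 (permutation p = 1e-05 for each, adjusted p = 7.5e-05). Col3a1 and Col5a2, 24614 bp apart on chromosome 1, had an r of 0.927 and a rho of 0.944 (permutation p = 3e-05 for each). Col1a1 and Col1a2, on different chromosomes, had an r of 0.924 and a rho of 0.804 (permutation p = 5e-05 and 0.0023). Without the 2 libraries farthest from the median of the gene named first, these 4 values of r were 0.976, 0.974, 0.897 and 0.855.

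Not every pair of partner chains behaved this way. Col8a1 and Col8a2 had an r of 0.255 and a rho of 0.077 (permutation p = 0.42 and 0.82), or an r of 0.092 without 2 libraries. Col11a1 and Col11a2 had an r of 0.147 and a rho of 0.238 (permutation p = 0.64 and 0.46), or an r of 0.265 without 2 libraries. Across classes, Col15a1 went with Col4a1 (r = 0.826, rho = 0.755, permutation p = 0.00083 and 0.0062, r = 0.890 without 2 libraries), and both are made for basement membranes. Col1a1 and Col4a1 had an r of 0.338 and a rho of 0.385 (permutation p = 0.28 and 0.22), an r of 0.357 without 2 libraries and an r of 0.056 without ADI-PEG20 1. Once each value was set against its group mean, r was 0.627 (adjusted permutation p = 0.036) and rho was 0.48 (adjusted permutation p = 0.14). The permutation made no allowance for the group means taken out, so these 2 p-values may be too small. The other relations were Col5a1 with Col5a2 (r = 0.683), Col4a3 with Col4a4 (0.599), Col4a5 with Col4a6 (0.653), Col6a1 with Col6a3 (0.769), Col1a1 with Col3a1 (0.827), Col3a1 with Col4a1 (0.638) and Col1a1 with Col6a1 (0.781). Over these 7 the permutation p of r was 0.001 to 0.039, rho was 0.504 to 0.783, and the permutation p of rho was 0.0038 to 0.098. For r each of the 7 had an adjusted p under 0.05, and all but Col4a5 with Col4a6 missed it over the 10 libraries left without the 2 farthest. There r was 0.607 for Col5a1 with Col5a2, 0.491 for Col4a3 with Col4a4, 0.707 for Col4a5 with Col4a6, 0.594 for Col6a1 with Col6a3, 0.689 for Col1a1 with Col3a1, 0.272 for Col3a1 with Col4a1 and 0.572 for Col1a1 with Col6a1. With fewer libraries the test is also weaker, and of these 7 the r of Col3a1 with Col4a1 moved the most.

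**Figure D4:**
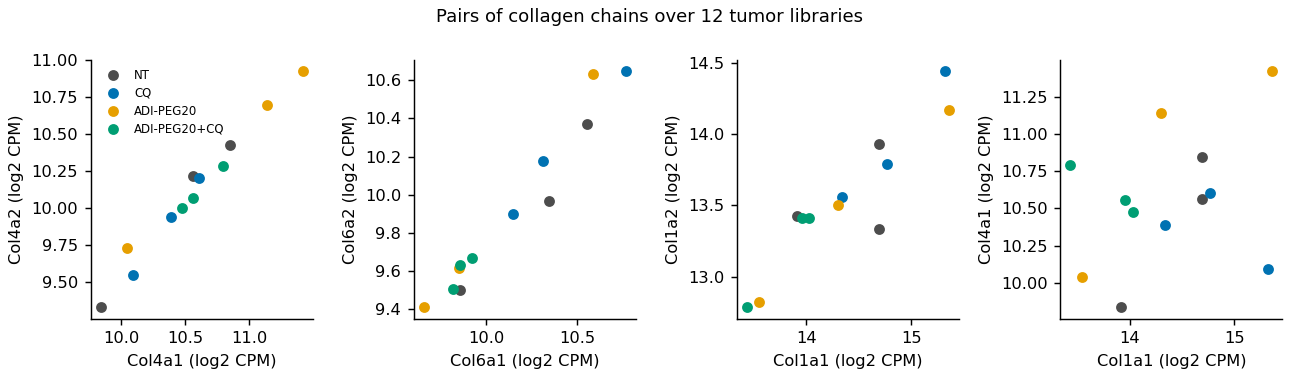
Log2 CPM of 1 collagen chain against another in the 12 libraries (1 point each, coloured by treatment). Col4a1 with Col4a2 and Col6a1 with Col6a2 fall on nearly straight lines (r = 0.988 and 0.978), Col1a1 with Col1a2 less so (0.924), and Col1a1 with Col4a1 scatters (0.338).

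The level of Col1a1 relative to Col4a1 in the same library does not depend on how libraries are scaled. As a log2 ratio it was 4.08, 3.85 and 4.13 in untreated tumors and 5.23, 3.95 and 4.16 with chloroquine. It was 3.94, 3.50 and 3.16 with ADI-PEG20 and 3.40, 2.64 and 3.55 with both. The combination lay below all untreated and all chloroquine libraries. ADI-PEG20 alone lay below all chloroquine libraries and overlapped the untreated ones in 1 library. This ratio was singled out after its values were seen and has no test. The log2 ratio of Col1a1 to Col3a1 averaged 1.92 (SD 0.23, n = 3) untreated, 2.06 (SD 0.27, n = 3) with chloroquine, 1.66 (SD 0.29, n = 3) with ADI-PEG20 and 1.37 (SD 0.27, n = 3) with both. Col1a1 and Col3a1 thus did not stand in 1 fixed proportion.

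**Figure D5:**
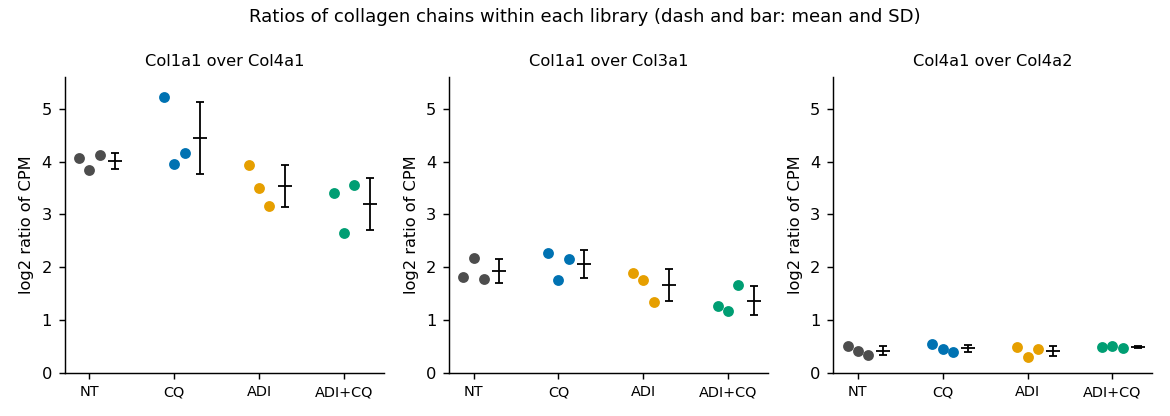
Log2 ratio of CPM between 2 collagen genes within each library (vertical axes, from 0) in the 4 groups; points are libraries and the dash and bar are the mean and SD (n = 3). Col1a1 over Col4a1 is 3.85 to 5.23 in libraries without ADI-PEG20 and 2.64 to 3.94 in libraries with it, while Col4a1 over Col4a2 stays between 0.31 and 0.54.

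Of the genes that make, trim, cross-link, bind and break down collagen, 61 of 64 listed were in the table (without Tll2, Gp6 and Sp7), and none passed after adjustment in any comparison. With ADI-PEG20, 2 of 61 were higher and 7 lower at an unadjusted p under 0.05, beside 5.17% and 3.13% of all genes. With chloroquine 1 was higher and 5 lower (2.06% and 1.33% of all genes), and with both 4 were higher and 5 lower (4.7% and 3.95%). The median difference of the 61 was -0.002, 0.04 and 0.01 in these 3 comparisons. Pcolce2, an enhancer of procollagen C-proteinase, was at 4.9976, 4.74 and 4.38 log2 CPM untreated, 3.90, 4.32 and 3.56 with chloroquine, 3.13, 4.08 and 3.31 with ADI-PEG20, and 3.44, 3.25 and 3.03 with both. It lay below the untreated libraries without overlap in every treated group, with differences of -1.20 for ADI-PEG20, -0.78 for chloroquine and -1.46 for both (SE 0.28 each). The adjusted p was 0.48, 1 and 0.2 in this order. Of the 12 trimming and cross-linking genes 4 were lower with both at an unadjusted p under 0.05, namely Pcolce2, Loxl1, Bmp1 and Adamts14, beside 3.95% of all genes, and 0 were higher, beside 4.7%. Loxl1, a lysyl oxidase of elastic and collagen fibers, was at 9.25, 9.08 and 9.04 log2 CPM untreated, 9.19, 8.98 and 8.89 with chloroquine, 9.39, 8.64 and 8.77 with ADI-PEG20, and 8.56, 8.32 and 8.60 with both, a difference of -0.63 with both (SE 0.19, adjusted p = 0.41).

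Prolyl hydroxylases let the triple helix fold. P4ha1 was at 7.62, 7.06 and 6.86 log2 CPM untreated, 6.62, 6.89 and 6.36 with chloroquine, 6.36, 6.44 and 6.61 with ADI-PEG20, and 6.76, 6.98 and 6.91 with both, and its difference from the untreated mean was -0.71 under ADI-PEG20 (no overlap), -0.56 under chloroquine (overlapping) and -0.30 under both (overlapping), with an SE of 0.19 each. P4ha2 was at 6.35, 6.90 and 6.46 log2 CPM untreated, 6.20, 6.44 and 6.33 with chloroquine, 5.72, 5.77 and 6.07 with ADI-PEG20, and 5.86, 6.11 and 6.34 with both, and differed by -0.71 with ADI-PEG20 (SE 0.18), without overlap, by -0.24 with chloroquine, with overlap, and by -0.46 with both, again without overlap. Colgalt2, which adds galactose to hydroxylysine, was at 1.27, 1.35 and 1.87 log2 CPM untreated, 1.67, 1.63 and 1.61 with chloroquine, 1.98, 2.51 and 2.98 with ADI-PEG20, and 1.97, 2.32 and 2.62 with both, higher by 0.99 with ADI-PEG20 (SE 0.32) and 0.80 with both (SE 0.32). Itga11, a receptor for fibrillar collagen on fibroblasts, was higher by 1.22 with ADI-PEG20 (SE 0.55) and 1.3996 with chloroquine (SE 0.55), and Tgfb3, a growth factor that induces collagen, by 0.84 with chloroquine (SE 0.40). Lair1, an inhibitory collagen receptor of immune cells, was higher by 0.98 with both (SE 0.31), beside the macrophage markers given above, and their part in it was not tested. Each of these had an adjusted p of 0.43 or more in the limma fit.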

How the data were processed

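Gene expression was measured by RNA sequencing in 12 tumor libraries, 3 in each of 4 groups. Tools listed in the submitters' processing notes were limma and edgeR, featureCounts 1.4.6-p5 of Subread, STAR 2.5.1a, Salmon 0.8.2 and bcl2fastq, with mm10 as genome build; which tool did what is not given in the sources used here. The authors deposited 1 table of 16386 lines, of which 51 repeat an identifier and were left out. Each library has a column of deposited log2 CPM, found from the values to be the log2 of reads plus 0.5 per effective library size, and 100% of the values under 2000 reads came within 0.02 of whole reads. Per the file headers it also holds the authors' log2 fold changes, p-values and adjusted p-values. The lowest gene total was 85 reads (250 for a collagen gene), so the table had been filtered before, and no further filter was used. The deposited KEGG set tables were not used here.

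The main test was limma 3.58.1 in R 4.3.3 (lmFit and eBayes with a trend) on the deposited log2 CPM of all 12 libraries, two-sided, with Benjamini-Hochberg adjustment over 16335 genes and a threshold of 0.05. It was also run on simulated reads that gave every gene the same dispersion. That run does not show how the fit performs on genes with a spread as wide as that of the collagens. Recovered reads served for depth, and for a voom fit as an alternative. Levels per kb used exon lengths and positions of GENCODE M21 (GRCm38), which held all 40 genes. Pair correlations used 100000 permutations (scipy 1.17.1). Genes given in every library were, by rule, the most abundant of each class, the chains of collagens I, III, IV, V and VI, the 2 higher and 2 lower genes with the smallest p in each comparison with NT, and the 3 with the smallest F test p. Col13a1 and the pairs of genes without overlap follow from counts over all 40. The collagen genes, classes, pathway and marker lists were chosen with earlier results of these data known.

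Replicate numbers were checked as pairs by the correlation of deviations from group means. Only between ADI-PEG20+CQ and CQ was it over 0.1 for all 3 numbers (0.117, 0.110 and 0.153). The main fit used no pairs. The replicate block gave each number an effect shared by all 4 groups, also where the check was not passed. The labels do not say what a number shares. Alternatives were no trend, library quality weights, voom weights, log2(CPM + 1), centring on the median of all genes, genes with a mean of 1 log2 CPM or more, the replicate block, only the groups compared, and leaving out each library. Leaving out both ADI-PEG20 1 and NT 2 was added after seeing the data.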

Additional observations from a re-analysis of the deposited data

How the results depend on the processing

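The number of collagen genes with an adjusted p under 0.05 was 0 in every comparison under each alternative run, leaving out each library included, except that it was 1 (Col10a1) for both drugs against chloroquine when these groups alone were fitted. That fit had 12.6% of all genes at an unadjusted p under 0.05, beside 6.78% in the main fit. Without the 2 libraries farthest from the median, 6 rather than 12 pairs of chains had an adjusted p under 0.05. The r of Col11a1 with Col11a2 went from 0.147 to -0.0001 without ADI-PEG20 replicate 1. With the replicate block the count of collagen genes at an unadjusted p under 0.05 was 10 rather than 6 for both drugs against chloroquine (7.88% of all genes in that fit, 6.78% in the main fit). It was 3 rather than 0 for the interaction (5.67% and 4.26%), stayed within 1.5 times elsewhere, and no adjusted p passed. Over all alternatives that count ran from 2 to 13 for ADI-PEG20 against NT, 0 to 5 for chloroquine, 3 to 7 for both, 0 to 7 for both against ADI-PEG20, 2 to 13 for both against chloroquine, 0 to 7 for the interaction and 2 to 11 for the F test. The share of all genes moved as well. At the highest counts it was 13.4%, 8.3%, 9.93%, 9.21%, 13.8%, 8.56% and 8.35%, in this order. In the main fit it was 8.31%, 3.4%, 8.65%, 3.42%, 6.78%, 4.26% and 5.72%. The median for ADI-PEG20 against NT was -0.06 with library quality weights, and that for both drugs against NT was 0.04 among genes with a mean of 1 log2 CPM or more; the cause was not tested. Without both ADI-PEG20 1 and NT 2 the medians were -0.08 for ADI-PEG20 against NT and 0.04 for both drugs against ADI-PEG20. Genes were followed under the alternatives if they were among the 2 higher and 2 lower with the smallest p in a comparison with NT. Those at an unadjusted p under 0.05 for both drugs against chloroquine were followed too. No alternative turned the direction of these genes. Col10a1 in ADI-PEG20 against NT ranged from 1.42 to 2.88, Col7a1 in both against chloroquine from -1.71 to -1.13, and Col1a1 in both against chloroquine from -1.23 to -0.74. Among genes not followed in this way, Col5a2 was lower in both against chloroquine in the main fit, but not without ADI-PEG20+CQ 2. Counting error is small for the abundant chains, but Col22a1, Col26a1, Col6a4 and Col6a6 had 0 to 3 reads in their lowest library, so their differences are poorly measured.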
